A study of Mus musculus with 12 samples.

Results

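The genes described here are 6 intracellular brakes on cytokine signalling, chosen by symbol from the raw count table: Socs1, Socs3 and Cish of the SOCS family, and the tyrosine phosphatase genes Ptpn2, Ptpn6 and Ptpn22. All 6 are among the 545 immune genes of the table, and 5 of them cleared the background rule for testing, as did 366 of the 545. RNA came from microglia of the hippocampus of male mice (strain label Balbc) raised under control conditions, at postnatal day 28 (P28, n = 6) and postnatal day 14 (P14, n = 6), every animal from a different litter. The cells had been enriched on a Percoll gradient and sorted by flow cytometry, and amplified cDNA was hybridised to the nCounter mouse immune panel, which counts a fluorescent barcode for each captured target. No stressed animals were analysed here, so age is the comparison, and it asks how these brakes differ as microglia mature.

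Cytokine receptors without a kinase of their own signal through JAK kinases, which phosphorylate the receptor tails and the STAT transcription factors. STAT dimers then induce, among many genes, the SOCS proteins. These bind the receptor or the JAK through an SH2 domain and recruit a ubiquitin ligase through their SOCS box, and some of them also block the kinase. SOCS1 acts mainly on interferon signalling, SOCS3 on signalling through the IL-6 receptor chain gp130, and CIS, the product of Cish, on STAT5-coupled receptors. The phosphatases remove the phosphates: TC-PTP, the product of Ptpn2, acts on JAK1, JAK3 and nuclear STATs, SHP-1, the product of Ptpn6, is recruited by inhibitory receptors of leukocytes, and the product of Ptpn22 acts on Src-family and Syk-family kinases. In microglia, as in other macrophages, SHP-1 is a main effector of inhibitory receptors and SOCS3 a brake on the response to IL-6.

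Because SOCS genes are themselves targets of STATs and interferon regulatory factors, the start-site regions of the SOCS genes are shown, beside that of Ptpn6, the other gene that passed the test. RefSeq windows on GRCm38.p6 were found for 5 of the 6 genes; Ptpn2 is named only. The STAT motif searched was TTCNNNGAA, which reads the same on both strands. The core of the interferon-stimulated response element was searched on both strands as 2 copies of GAAA with any 2 bases between them. Capitals mark matches. The sequences run 5′ to 3′ on the gene's strand and end just before the annotated start. Socs3 (minus strand, chr11:117969367-117969616), Socs1 (minus strand, chr16:10785537-10785786) and Ptpn6 (minus strand, chr6:124738710-124738959) are given over 250 bases, and Cish (plus strand, chr9:107296654-107296683) over the 30 bases around its start that hold its matches.
Socs3: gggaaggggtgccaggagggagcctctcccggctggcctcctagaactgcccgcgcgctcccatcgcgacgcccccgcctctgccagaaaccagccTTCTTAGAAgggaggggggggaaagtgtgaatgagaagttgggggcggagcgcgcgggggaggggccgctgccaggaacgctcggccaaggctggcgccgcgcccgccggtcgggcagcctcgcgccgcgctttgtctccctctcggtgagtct
Socs1: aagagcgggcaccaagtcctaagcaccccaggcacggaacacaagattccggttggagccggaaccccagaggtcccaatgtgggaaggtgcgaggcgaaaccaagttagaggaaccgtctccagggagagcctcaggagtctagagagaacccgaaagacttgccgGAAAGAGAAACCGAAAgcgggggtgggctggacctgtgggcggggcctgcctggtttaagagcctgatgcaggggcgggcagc
Ptpn6: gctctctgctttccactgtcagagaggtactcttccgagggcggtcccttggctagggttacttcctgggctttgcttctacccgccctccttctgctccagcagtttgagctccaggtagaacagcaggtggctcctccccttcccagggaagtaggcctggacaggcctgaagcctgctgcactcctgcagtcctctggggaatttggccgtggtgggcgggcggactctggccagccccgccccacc
Cish: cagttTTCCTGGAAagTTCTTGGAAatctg
The Socs3 window held 1 STAT match, TTCTTAGAA, 154 to 146 bases before the start. The Socs1 window held no STAT match but 2 overlapping matches to the interferon core, GAAAGAGAAA and GAAACCGAAA, the first beginning 83 bases before the start. Cish held the tandem STAT matches TTCCTGGAA and TTCTTGGAA, beginning 0 and 11 bases past the annotated start, and the Ptpn6 window held neither motif. Ptpn22 has 2 annotated starts, and the window of the second held a STAT match, TTCTGGGAA, 232 to 224 bases before it. Over all 32851 promoter windows of the table, 7.02% held the STAT motif and 2.98% the interferon core in the 250 bases before the start, and 8.30% held the STAT motif in the 300 bases that include the start. A match describes the letters only; binding was not measured.

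Levels are given as scaled counts, the raw barcode counts divided by a factor per sample from 6 reference genes (Alas1, Gapdh, Oaz1, Polr1b, Sdha and Tbp). Raw counts of the 545 genes summed to 1025196 to 1534665 per sample at P28 and to 356398 to 1316430 at P14, the lowest in P14 sample 5 with P14 sample 4 next at 772723. The positive-control spikes did not overlap between the ages, with geometric means of 1069 to 1235 counts at P28 and 542 to 651 at P14; no label explains this gap, and it cannot be told apart from age. With those spikes as the only scale the median log2 fold change over the 366 tested genes was -0.74, against 0.0025 with the reference genes, so directions below are relative to the reference genes. All 10 genes of the microglia marker list that the panel held were tested, with Trem2 higher and Emr1 lower, and they had summed scaled counts of 273135 to 308518 at P28 and 247337 to 308834 at P14. P14 samples 4 and 5 are known from earlier results of these data to stand apart from the other P14 samples, and results that depend on them are given with and without them.

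Of the 5 brakes tested, Socs3 and Ptpn6 were higher at P28, none was lower, and Ptpn2, Socs1 and Ptpn22 did not pass an FDR of 0.05 in edgeR's quasi-likelihood test. Across all 366 genes 30.6% were called, 16.7% as higher and 13.9% as lower, so 2 calls of 5 are near that background. Under the other settings, in the order either direction, higher and lower, the share of all genes called was 37.2%, 2.19% and 35% with positive controls alone, and 43.2%, 18.6% and 24.6% without P14 samples 4 and 5. It was 40.2%, 13.9% and 26.2% with total counts, and 36.3%, 19.1% and 17.2% with TMM, which scales by a trimmed mean of all genes. It was 35.8%, 24.3% and 11.5% with all 14 reference genes, and 33.9%, 13.7% and 20.2% without Polr1b. It was 35.2%, 25.4% and 9.84% with the authors' scale factors, and 35%, 18.6% and 16.4% with DESeq2. Socs3 rose 2.28-fold and Ptpn6 1.37-fold. Cish, the remaining member, was not above background in any sample at P28.

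**Figure D1:**
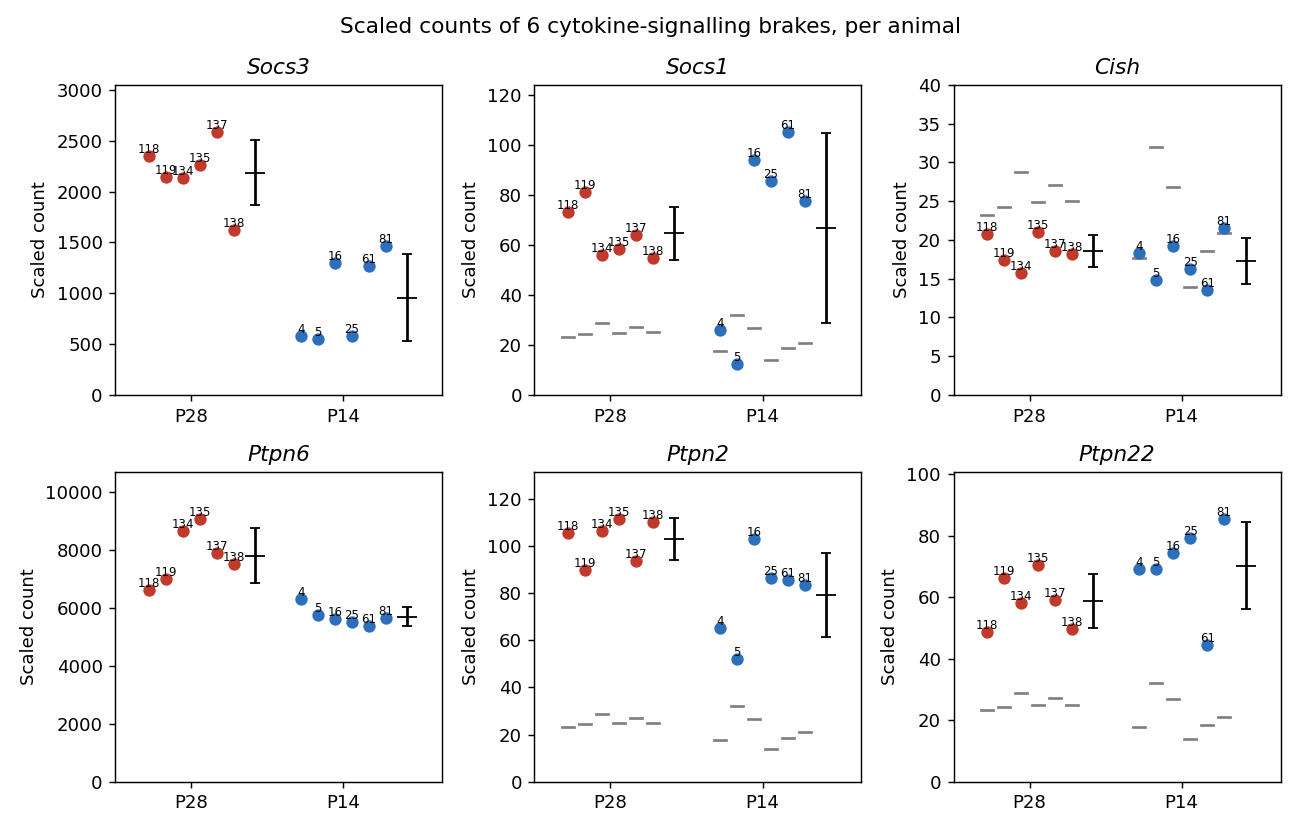
Scaled counts (vertical axis, from 0) of the 6 genes in each animal, P28 in red and P14 in blue, with the sample number beside each point, mean and SD (n = 6) as a black bar, and the sample's own background threshold as a grey dash (not drawn for Socs3 and Ptpn6, which lie far above it). Socs3 and Ptpn6 have no overlap between the ages, Socs1 is near background in P14 samples 4 and 5, and Cish lies near its thresholds, above them in 0 of 6 samples at P28 and 3 of 6 at P14.

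Socs3, the feedback inhibitor of gp130 signalling, had 2350, 2145, 2137, 2263, 2583 and 1625 scaled counts in P28 samples 118, 119, 134, 135, 137 and 138, against 579, 549, 1300, 584, 1266 and 1463 in P14 samples 4, 5, 16, 25, 61 and 81. Every P28 sample was above every P14 sample. The P14 samples themselves lay apart, with 4, 5 and 25 at 549 to 584 and 16, 61 and 81 at 1266 to 1463. The means were 2184 ± 319 at P28 and 957 ± 428 at P14 (SD, n = 6 each), a log2 fold change of 1.19 ± 0.26 (SE, adjusted p = 0.00275). Without P14 samples 4 and 5 the log2 fold change was 0.92 ± 0.21 (adjusted p = 0.00451; 2.51e-05 to 0.469 over the 26 alternatives), and the only alternative that ended the call was scaling to positive controls alone, at 0.34. In the authors' deposited table the fold of Socs3 was 2.51.

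Socs1, the brake on interferon signalling, had 73.2, 81.3, 56.0, 58.2, 63.9 and 54.7 scaled counts in P28 samples 118, 119, 134, 135, 137 and 138, against 26.1, 12.4, 93.8, 85.5, 105 and 77.7 in P14 samples 4, 5, 16, 25, 61 and 81. In P14 sample 5 the raw count was 5, under that lane's background threshold of 12.9, and in P14 sample 4 it was 20, against a threshold of 13.5. P14 samples 4 and 5 were below every P28 sample, and the other 4 P14 samples (77.7 to 105) overlapped the P28 range of 54.7 to 81.3 at its upper end. Over all samples Socs1 averaged 64.5 ± 10.7 at P28 and 66.7 ± 38.1 at P14, a log2 fold change of -0.096 ± 0.34 (adjusted p = 0.859). Without P14 samples 4 and 5 the P14 mean was 90.5 ± 11.7 (n = 4), against 64.5 ± 10.7 at P28, and Socs1 then passed as lower at P28 (-0.48 ± 0.15, adjusted p = 0.019; 0.019 to 0.988 over the 25 alternatives). The direction of Socs1 in all 12 samples also changed with the test and the scaling, since limma on log2 values gave a positive difference of 0.27.

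Cish, the STAT5-induced family member, had raw counts of 29, 22, 14, 22, 23 and 18 in P28 samples 118, 119, 134, 135, 137 and 138, against 14, 6, 23, 18, 14 and 25 in P14 samples 4, 5, 16, 25, 61 and 81. It exceeded its lane's threshold in 0 of 6 samples at P28 and in 3 of 6 at P14, by at most a few counts. Lane thresholds were also higher at P28 (24.8 to 33.4 counts) than at P14 (12.9 to 32.0). Cish was therefore not tested in the main comparison; with all 545 genes tested its log2 fold change was 0.091 ± 0.15 (adjusted p = 0.779), a difference between values at background.

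Ptpn6 encodes SHP-1, the phosphatase that inhibitory receptors recruit. It had 6619, 7016, 8674, 9080, 7904 and 7522 scaled counts in P28 samples 118, 119, 134, 135, 137 and 138, against 6298, 5753, 5609, 5508, 5387 and 5666 in P14 samples 4, 5, 16, 25, 61 and 81. The ages did not overlap, though the lowest P28 sample, 118, was close to the highest P14 sample, 4. Across the panel 20.8% of tested genes separated the ages completely, 12.8% with P28 above, as Socs3 and Ptpn6 did among the 5 brakes. The mean was 7803 ± 949 at P28 and 5703 ± 318 at P14 (log2 fold change 0.45 ± 0.10, adjusted p = 0.00275). Leaving out P14 samples 4 and 5 gave 0.49 ± 0.10, and scaling to positive controls alone turned the value to -0.26 without a call (adjusted p 1.98e-06 to 0.457 over the 26 alternatives).

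Ptpn2, the gene of the phosphatase TC-PTP, had 106, 89.9, 106, 112, 93.9 and 110 scaled counts in P28 samples 118, 119, 134, 135, 137 and 138, against 65.2, 51.9, 103, 86.4, 85.7 and 83.7 in P14 samples 4, 5, 16, 25, 61 and 81. P14 sample 16 lay inside the P28 range and P14 samples 4 and 5 were the lowest of all. Ptpn2 averaged 103 ± 8.93 at P28 and 79.3 ± 18.0 at P14, and the log2 fold change of 0.36 ± 0.15 did not pass (adjusted p = 0.0923). It depended on the choice of scale: it passed as higher with the authors' factors (0.49), all 14 reference genes (0.44) and TMM (0.33), was 0.20 ± 0.12 without P14 samples 4 and 5, and turned to -0.44 with positive controls alone (adjusted p 0.0113 to 0.320 over the 26 alternatives). The authors' deposited table gives Ptpn2 a fold of 1.42 with p = 0.002.

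Ptpn22, which encodes the phosphatase LYP/PEP of antigen-receptor signalling, was the brake with the lowest fitted difference. Its scaled counts were 48.8, 66.3, 58.2, 70.6, 59.1 and 49.6 in P28 samples 118, 119, 134, 135, 137 and 138, against 69.1, 69.3, 74.5, 79.2, 44.3 and 85.4 in P14 samples 4, 5, 16, 25, 61 and 81. The lowest value of all was P14 sample 61, and the ages overlapped. Means of 58.8 ± 8.71 at P28 and 70.3 ± 14.2 at P14 gave a log2 fold change of -0.26 ± 0.16 (adjusted p = 0.242). Only positive controls alone made it a call, as lower (-0.97; adjusted p 0.035 to 0.571 over the 26 alternatives).

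**Figure D2:**
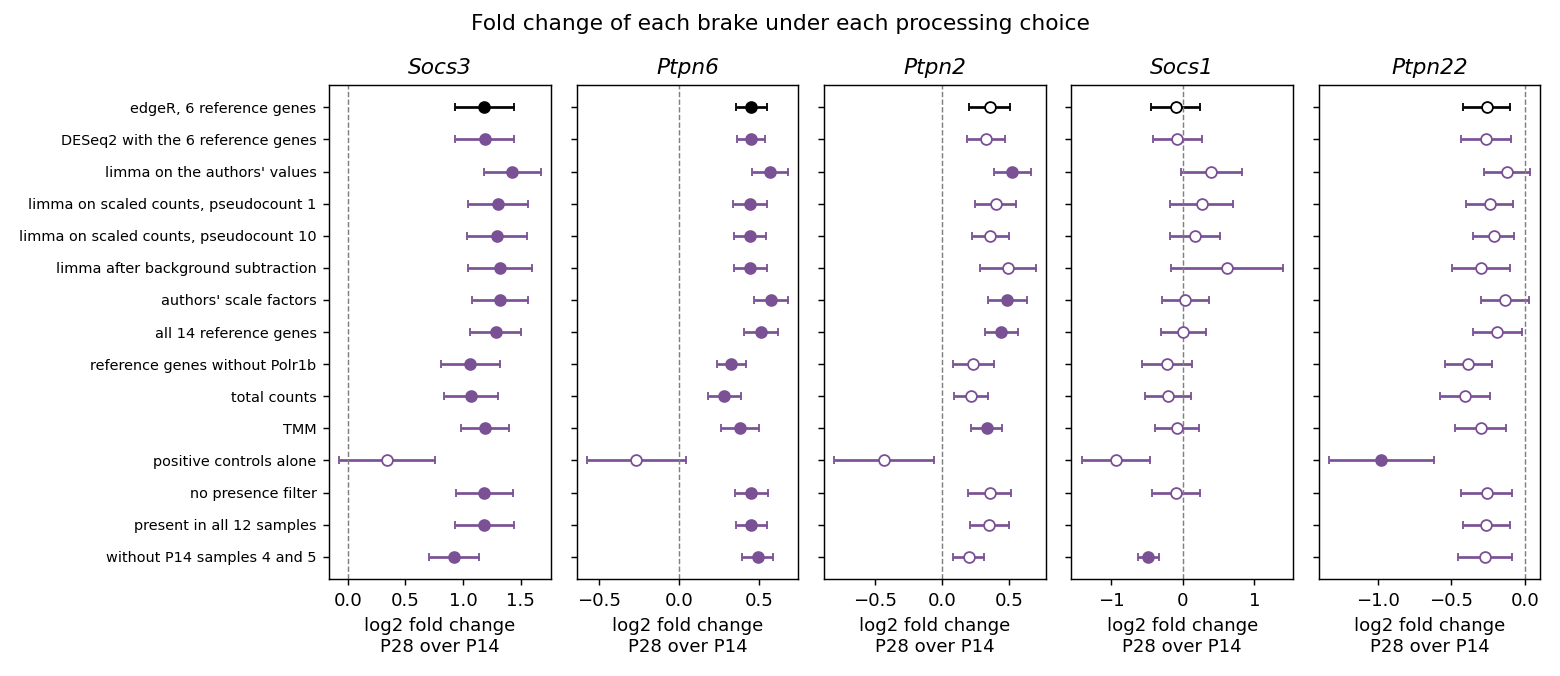
Log2 fold change, P28 over P14 (horizontal axis), of the 5 tested brakes under each processing choice (rows), with SE bars; the black row is edgeR with 6 reference genes and filled points have an adjusted p under 0.05. Socs3 and Ptpn6 are filled in all rows but positive controls alone, where Socs3 is at 0.34 and Ptpn6 at -0.26. Socs1 crosses 0 between rows.

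The brakes differed in how evenly they were expressed among animals of an age. At P14 the SD of log2 scaled counts was 1.22 for Socs1, rank 3 of the 366 tested genes from the most variable, and 0.68 for Socs3, rank 36. It was 0.35 for Ptpn2 and 0.33 for Ptpn22, close to the median over all tested genes of 0.33, while Ptpn6 was among the most even at 0.078, rank 362. At P28 the same SD was 0.23 for both Socs1 and Socs3, 0.18 for Ptpn6, 0.13 for Ptpn2 and 0.21 for Ptpn22, against a median of 0.22. In the 4 P14 samples other than 4 and 5, the SD of Socs1 was 0.18, rank 189 of 366, so its wide P14 spread lay in samples 4 and 5, the second of them below background. In the same 4 samples the SD of Ptpn2 was 0.14, near its P28 value, while Socs3 had 0.61 (rank 8), Ptpn22 0.42 (rank 28) and Ptpn6 0.032 (rank 358), against a median of 0.19. Socs3 and Ptpn22 thus had a smaller SD at P28 and Ptpn6 a larger one with and without P14 samples 4 and 5, whereas for Socs1 the direction turned. The wider P14 spread of Ptpn22 rested on P14 sample 61, at 5.50 on the log2 scale. The other P14 samples lay at 6.13 to 6.43, a narrower range than the 5.64 to 6.16 at P28. The SD of Ptpn22 without P14 sample 61 was not computed. These are descriptions of 4 to 6 animals an age, with no test.

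Ratios of counts within a lane do not depend on the scaling, so the brakes were also compared with each other and with their partners in 7 ratios; 3 planned ratios with Cish were not computed. Each was tested with an exact two-sided permutation test over 924 arrangements, whose smallest p is 0.00216, and adjusted over the 7 ratios. Socs3 rose against Stat3, the STAT it restrains downstream of gp130: the ratio of raw counts was 2.33, 2.57, 2.31, 2.44, 2.39 and 1.76 in P28 samples 118, 119, 134, 135, 137 and 138, against 0.560, 0.563, 0.839, 0.599, 1.02 and 1.19 in P14 samples 4, 5, 16, 25, 61 and 81. The ages did not overlap, and the log2 ratio was 1.59 higher at P28 (exact p = 0.00216, adjusted p = 0.0152). Against Il6st, which encodes gp130, the Socs3 ratio was 2.20-fold higher at P28 (exact p = 0.00649, adjusted p = 0.0152), with P28 sample 138 inside the P14 range.

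Socs3 against Socs1 was 2.10-fold higher at P28 (exact p = 0.0108, adjusted p = 0.0189), and the ratio in P14 sample 5, 37.2, lay inside the P28 range of 26.2 to 39.9 where Socs1 itself was below background. After subtraction of the lane's mean negative control the ratio no longer passed (log2 difference 0.70, adjusted p = 0.509; 0.00758 to 0.509 over the 15 alternatives). In P14 sample 5 the Socs1 count was negative after that subtraction (-2.125), and a small positive floor took its place. Without P14 samples 4 and 5, and without subtraction, the log2 difference of Socs3 against Socs1 was 1.48.

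Among the phosphatases, Ptpn6 against Ptpn22 was 1.61-fold higher at P28 (exact p = 0.00433, adjusted p = 0.0152) and passed in all 15 alternatives. Ptpn2 against Ptpn22 was 1.56-fold higher (exact p = 0.0216, adjusted p = 0.0303), a call lost without P14 samples 4 and 5 (log2 difference 0.43, adjusted p = 0.0905) or without P28 sample 118, P28 sample 138 or P14 sample 5. For Ptpn6 against Ptpn2 the log2 ratio was 6.23 ± 0.17 at P28 and 6.18 ± 0.38 at P14 (exact p = 0.764). Ptpn6 against Csf1r, the receptor for microglial survival factors, did not pass over all samples either (log2 difference 0.092, exact p = 0.686). P14 samples 4 and 5 had the highest ratios in both pairs, and without them the log2 difference was 0.29 against Ptpn2 (adjusted p = 0.0278; 0.0278 to 0.989 over the 15 alternatives) and 0.43 against Csf1r (adjusted p = 0.0111; 0.0111 to 0.989 over the 15 alternatives).

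**Figure D3:**
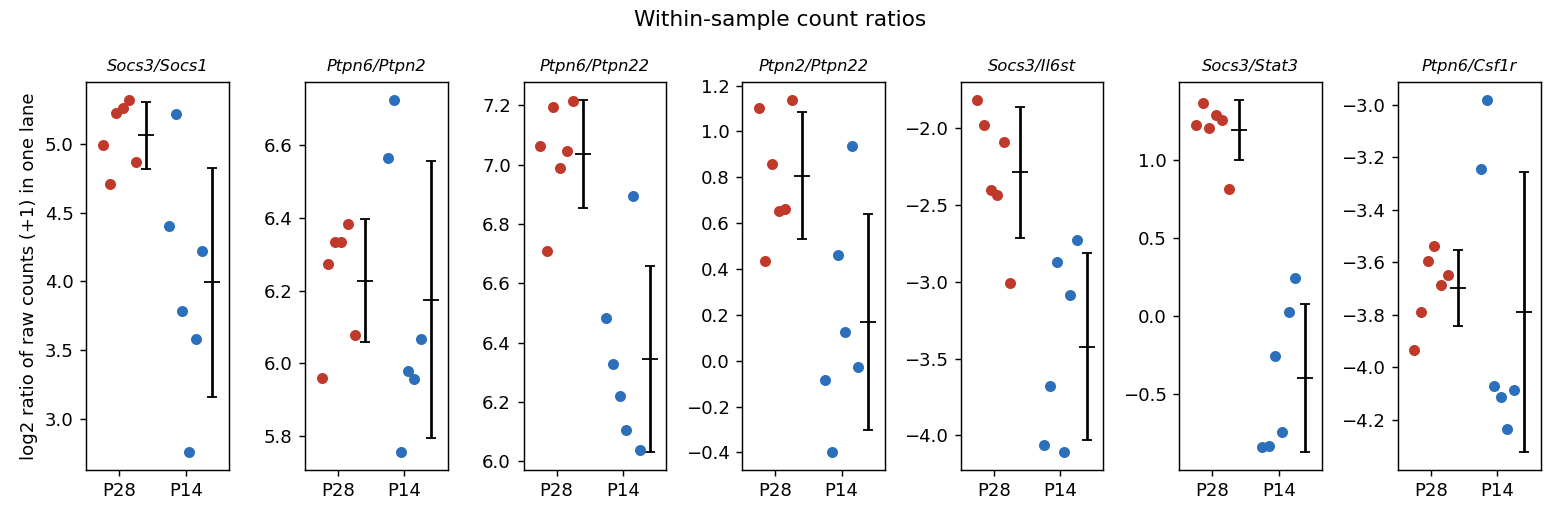
Log2 ratio of raw counts (each plus 1) of pairs of genes within a lane (vertical axis), P28 in red and P14 in blue, in order of sample number, with mean and SD (n = 6) in black. The Socs3/Stat3 ratio does not overlap between the ages, with 0.81 as the lowest P28 value and 0.25 as the highest P14 value, and the Ptpn6/Csf1r ratio is highest in P14 samples 4 and 5.

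The signalling chain that these brakes act on was read from lists of its other genes. Of 60 tested genes on 6 lists of the pathway, members left out, 8 rose, 6 fell and 46 did not pass; the median log2 fold change was 0.023, against 0.0025 over all 366 genes. Of 10 tested JAK kinases and STAT factors, Stat5a, which mediates responses to GM-CSF and IL-2 family cytokines, was the only gene called (0.57 ± 0.19, adjusted p = 0.0275). It had 633 ± 42.2 scaled counts at P28 and 423 ± 134 at P14. Jak3 (-0.49 ± 0.19, adjusted p = 0.0577), Stat3 (-0.30 ± 0.13, adjusted p = 0.0923) and Stat5b (0.18 ± 0.10) did not pass in all samples; without P14 samples 4 and 5, Jak3 (-0.72) and Stat3 (-0.39) passed as lower. With positive controls alone Stat5a stood at -0.25.

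Of 19 tested genes on the list of cytokine receptor chains, most of which signal through JAKs, 2 rose, 1 fell and 16 did not pass. The list also holds Csf1r, a receptor with a kinase of its own. Il7r, the IL-7 receptor, rose (1.13 ± 0.17), with 4855 ± 433 scaled counts at P28 and 2211 ± 593 at P14. Il21r, the IL-21 receptor, rose as well (0.55 ± 0.16, adjusted p = 0.0188). Il2rb, the beta chain for IL-2 and IL-15, was above background in 0 of 6 samples at P28 and in 6 of 6 at P14, at least 2.07-fold lower at P28. Il6st (0.18 ± 0.14), Il4ra (0.75 ± 0.34) and Csf1r (0.29 ± 0.17) did not pass. With P14 samples 4 and 5 left out, 4 receptor chains rose and 3 fell, and with positive controls alone 0 and 6.

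Of 9 tested genes on the list of inhibitory receptors, many of which can recruit SHP-1, 2 rose and 1 fell; the list also holds Clec5a, an activating receptor, which did not pass. Pdcd1, the checkpoint receptor PD-1, had 113 ± 25.9 scaled counts at P28 and 43.2 ± 13.6 at P14 (1.37 ± 0.21), and Cd5, a damper of antigen receptors, rose by 1.07 ± 0.20 but was above background in 6 of 6 samples at P28 and 3 of 6 at P14. Ceacam1, an adhesion receptor with inhibitory motifs, fell (-0.55 ± 0.11), and Pecam1 did not pass (-0.43 ± 0.21). With P14 samples 4 and 5 left out 3 rose and 1 fell. The 3 were Pdcd1, Cd5 and the activating receptor Clec5a (0.69), so no further inhibitory receptor was called higher. With positive controls alone 0 rose and 2 fell.

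Of 7 tested genes on the list of kinases and adaptors that SHP-1 or the Ptpn22 phosphatase act on, 0 rose, 3 fell and 4 were not called. Fyn, a Src-family kinase, had 309 ± 42.2 scaled counts at P28 and 859 ± 283 at P14 (-1.48 ± 0.20), Fcer1g, the Fc receptor signalling chain, fell by 1.07 on the log2 scale, and Lck, the T cell Src-family kinase, fell by 1.01. Ptprc, also on this list, encodes the receptor phosphatase CD45, which is neither a kinase nor an adaptor, and it did not pass (0.36 ± 0.17). Of these 7 genes, 0 rose and 3 fell both without P14 samples 4 and 5 and with positive controls alone.

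Of 8 tested genes of the list of other brakes, 2 rose and 1 fell. Cd274, the PD-1 ligand, had 105 ± 19.0 scaled counts at P28 and 47.8 ± 13.4 at P14 (1.11 ± 0.18), and Irak3, an inhibitor of Toll-like receptor signalling, rose by 0.56 ± 0.14, a value of -0.20 with positive controls alone. Sigirr, another inhibitor of that pathway, fell (-0.91 ± 0.20), and Nfkbia, the NF-kB inhibitor, did not pass (0.38 ± 0.16). Of 8 tested genes that STATs can induce, only Cxcl9, an interferon-gamma target, was called: it had 97.9 ± 13.2 scaled counts at P28 and 16.9 ± 4.69 at P14 (2.49 ± 0.17), and was above background in 6 of 6 samples at P28 and 2 of 6 at P14, so the fold rests on a P14 level near background. Cxcl10 (-1.48 ± 0.65), Il4ra and Bcl6 (0.24 ± 0.11) did not pass. Leaving out P14 samples 4 and 5, 2 of the other brakes rose and 3 fell, and 1 STAT-induced gene rose and 1 fell; with positive controls alone these numbers were 0 and 3, and 1 and 1.

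**Figure D4:**
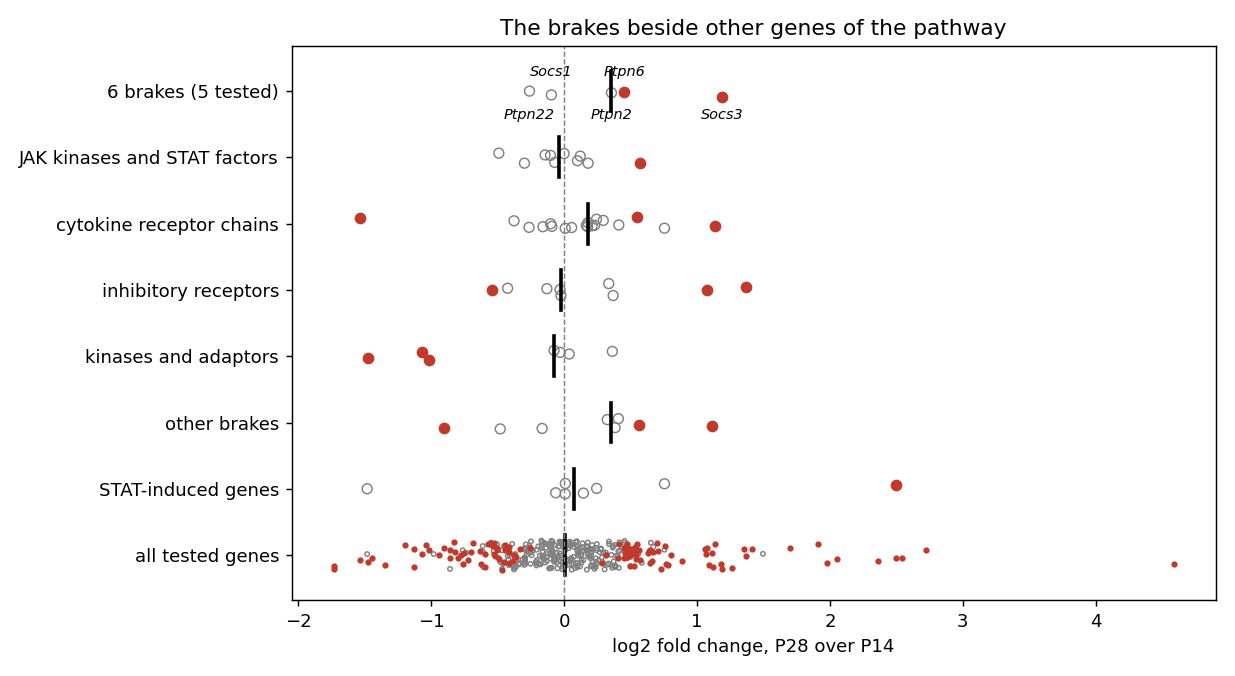
Log2 fold change, P28 over P14 (horizontal axis), of the 5 tested brakes, of the tested genes on 6 pathway lists and of all 366 tested genes (rows), with red points for an adjusted p under 0.05, open points for the others and a black bar for the median. Socs3 at 1.19 lies to the right of every JAK and STAT gene, the highest of which is Stat5a at 0.57.

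By pattern across the 12 samples, the 3 genes nearest to each brake were found by the root mean square distance of log2 scaled counts centred on each gene's mean. For Socs3 these were Icosl (0.34), Cd96 (0.35) and Tnfrsf11a (0.36), against a median distance of 0.78 to all other tested genes. Cd96 cleared background in 6 of 6 P28 samples and 0 of 6 P14 samples, and was at least 1.57-fold higher at P28. Icosl, the ligand of ICOS, had a log2 fold change of 1.09 ± 0.16, and Tnfrsf11a, the receptor RANK, of 1.70 ± 0.28. For Socs1 they were Cd160 (0.26), Nfatc1 (0.32) and Cd27 (0.32), against a median of 0.78. Cd160 had 88.1 to 117 scaled counts at P28 and 22.3 to 178 at P14, a wide P14 spread like that of Socs1. Without P14 samples 4 and 5 the log2 fold change of Socs1 moved from -0.096 to -0.48 and that of Cd160 from -0.21 to -0.58. Nfatc1 moved in the same direction, from 0.28 to -0.11, and so did Cd27, from 0.29 to -0.077.

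Ptpn6 was nearest to H2-Ab1 (0.11), a chain of MHC class II, then to Fkbp5 (0.16), a co-chaperone of the glucocorticoid receptor, and to Tlr9 (0.16), with a median distance of 0.43. Ptpn2 lay nearest to Irak2 (0.13), Csf1r (0.15) and Tcf4 (0.16), with a median of 0.39, and Ptpn22 to Hfe, Tnfsf8 and Tollip at 0.25 to 0.26, with a median of 0.46 that is closer to those values. These distances describe 12 samples that share 2 ages and carry no test.

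Since Socs1, Cish, Ptpn6 and Ptpn22 are also expressed by lymphocytes, and Socs3 by vessel cells, markers of other cells are given beside them. In bulk RNA, fewer cells of a type and less RNA per cell cannot be told apart. Of 17 genes of the T cell list on the panel 8 were tested (Cd3eap, on this list, encodes an RNA polymerase subunit and is no T cell marker), 2 rose and 2 fell, and Cd3e, Cd2 and Cd28 were not above background in any sample; the list summed to 739 to 879 scaled counts at P28 and 661 to 932 at P14. Of 10 B cell genes 7 were tested, 1 rose and 1 fell, and Pax5 and Cr2 were above background in no sample, with sums of 3607 to 5094 at P28 and 2711 to 4782 at P14. Of 8 NK cell genes 5 were tested: Klrd1 rose, and Klrk1 and Gzma fell. Their sums were 257 to 360 at P28 and 114 to 270 at P14. Each sum takes in all genes of a list on the panel, also those at background, which weighs most in low sums such as these. Of 7 neutrophil genes 4 were tested and 1 fell, with sums of 4210 to 8292 at P28 and 2921 to 8708 at P14. The 4 endothelial and mural genes on the panel summed to 6179 to 14623 at P28 and 3063 to 4850 at P14, with Cd34 and Pdgfrb higher and Cdh5 lower at P28. The part of these cells in the difference of Socs3 or Ptpn6 was not tested.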

How the data were processed

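Raw counts of barcodes per probe were deposited by the authors without scaling, for 545 genes, 14 reference genes, 8 negative and 6 positive controls; per the labels' protocols, 2 ng of RNA was amplified with 5 rounds of PCR first, so counting error is a lower limit. The authors' scaled table (a score for 336 genes, each column within 0.18% of a constant multiple of the raw counts for the 176 genes averaging over 500) also holds their fold, a ratio of means, and p-value per gene, per the file headers; it holds 5 of the 6 brakes. The headers call that test a t-test. Every per-sample column matched a sample, leaving 0 unmatched. Per the series design text, the authors scaled to positive controls and housekeeping genes; that text speaks of 5 such genes but lists 6, and all 6 were used here.

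A gene was present when above the mean plus 2 SD of its lane's negative probes in at least 40% of the 12 samples. Present genes were tested with edgeR 4.0.16 in R 4.3.3 (glmQLFit and glmQLFTest on raw counts, offset from the geometric mean of 6 reference genes, age as the only term, Benjamini-Hochberg over 366 genes, FDR 0.05). Alternatives used DESeq2 1.42.0, limma 3.58.1 on log2 values with a pseudocount of 1 or 10, other scalings and filters, and left-out samples. In the background-subtracted alternatives, counts below 1 after subtraction were set to 1, Socs1 in P14 sample 5 among them. A gene above background in no sample of an age has its fold given as a bound, against that age's mean scaled threshold. Tested on simulated counts for these 366 genes in this comparison, edgeR called 71 of the 100 genes set to differ 1.5-fold, 96 of the 100 set to differ 2-fold, and 4 that were left equal. The counts were simulated with the same scale factors that the test was given, and with equal numbers of genes raised and lowered. Error from the choice of scale is therefore not covered.

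The brakes, the lists and the rule for named genes were chosen with earlier results of these data known. Named genes are the brakes, up to 4 genes per pathway list with the smallest adjusted p, the genes of a ratio, and the 3 genes nearest in pattern to each brake.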

Additional observations from a re-analysis of the deposited data

Results flagged for a closer look

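In the within-lane ratio of Socs3 to Stat3, P28 sample 138 lay far from the other P28 samples, with a log2 ratio of 0.81 against 1.21 to 1.36 in the other 5; it was still above the highest P14 value of 0.25. In Ptpn22 at P14, sample 61 lay far below the other 5 on the log2 scale, at 5.50 against 6.13 to 6.43, but not far enough to be marked on linear scaled counts. These were the 2 outliers marked among 38 groups of values examined, log2 scaled counts having been added after seeing the data; chance alone would mark about 1 in 20.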

How the results depend on the processing

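Socs3 and Ptpn6 kept direction and call in 25 of 26 alternatives each. Positive controls alone gave 0.34 for Socs3 (adjusted p = 0.469), and turned Ptpn6 to -0.26 and Ptpn2 to -0.44, while Ptpn22 was called at -0.97. Ptpn2 was called with limma on the authors' values (0.53), the authors' factors (0.49), all 14 reference genes (0.44) and TMM (0.33). Socs1 turned positive with limma on the authors' values (0.40), on scaled counts with a pseudocount of 1 (0.27) or 10 (0.17) or after background subtraction (0.62), with the authors' factors (0.038) and with all 14 reference genes (0.0083), and was called lower without P14 samples 4 and 5 (-0.48). With 1 sample left out, Socs3 ranged from 1.07 to 1.35, Ptpn6 from 0.40 to 0.50, Ptpn2 from 0.27 to 0.44 (called without P14 sample 16), Socs1 from -0.27 to 0.064 (positive without P14 sample 16 or 61) and Ptpn22 from -0.37 to -0.19.

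Genes called higher over the panel numbered 61, against 93 with the authors' factors and 8 with positive controls alone; genes called lower numbered 51, against 26 with limma on the authors' values, 96 with total counts, 128 with positive controls alone and 90 without P14 samples 4 and 5. The split of higher to lower calls was 89 to 42 with all 14 reference genes and 50 to 74 without Polr1b. Pathway genes called higher numbered 8, against 17 with limma on the authors' values or the authors' factors, 18 with all 14 reference genes and 1 with positive controls alone. Those lower numbered 6, against 10 without Polr1b, 16 with total counts, 18 with positive controls alone and 13 without P14 samples 4 and 5. With 1 sample left out the pathway counts were 7 to 10 and 6 to 9, and the panel counts 56 to 67 and 45 to 61.

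Of the ratios, Socs3/Socs1 was not called after background subtraction (0.70), where Ptpn6/Ptpn2 turned to -0.043; without P14 samples 4 and 5, Ptpn6/Ptpn2 (0.29) and Ptpn6/Csf1r (0.43) were called and Ptpn2/Ptpn22 (0.43) was not. With 1 sample left out, Ptpn6/Ptpn2 ranged from -0.032 to 0.16 and Ptpn2/Ptpn22 from 0.53 to 0.79. Causes were not tested. No paired analysis was possible because the ages share no sample number. The presence rule left out Cish, and requiring all 12 samples left out Socs1. Cish was at background, which limits any comparison of it.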
